A study of Homo sapiens with 24 samples.

Results

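The genes described here are 8 subunits of the transcription factor AP-1: JUN, JUNB and JUND of the JUN family, FOS, FOSB, FOSL1 and FOSL2 of the FOS family, and BATF. They were taken as named genes of these families and found by NCBI Gene identifier, 8 of 28395 identifiers in the count tables, with counts listed for all 8 in both lines. Reads near the polyadenylated end of transcripts (3′ RNA sequencing) were counted per gene in 2 human multiple myeloma cell lines, that is, malignant plasma cells: JJN3 and MM1.S. Both carry the genotype label wild type and were grown in the same serum-containing medium. Each line was treated for 24 h with 500 nM CX-5461, an inhibitor of RNA polymerase I transcription, with 50 nM panobinostat, a histone deacetylase inhibitor, with both drugs at these doses, or with vehicle, at 3 libraries a group and 24 in all. With only these 2 lines, the many ways in which JJN3 and MM1.S differ cannot be told apart. Whether replicates are separate cultures is not given in the labels: p-values here measure only how far these libraries scatter, and that scatter may be technical.

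AP-1 is a dimer of basic leucine zipper proteins that binds short palindromic DNA sites. JUN proteins pair with one another or with FOS proteins, whereas FOS proteins need a partner. JUN and FOS are classical immediate early genes: stress and growth signals that run through the MAP kinases JNK, p38 and ERK raise their transcription within minutes, and their mRNAs and proteins are short-lived. BATF, expressed in lymphoid cells, pairs with JUN proteins and binds composite sites with the interferon regulatory factors IRF4 and IRF8, of which IRF4 is a factor that myeloma cells depend on.

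Total counts ranged from 4751893 to 7305069 per library. The plasma cell marker CD38 had 0 to 2 counts per library in JJN3, while the other 6 plasma cell markers were detected. Summed over 7 such markers, levels ran from 1239 to 1356 CPM in JJN3 vehicle libraries and from 5647 to 6003 CPM in MM1.S vehicle libraries. Of 9 markers of other cell types, CD3D was at 0 throughout, and HBB made up nearly all of their sum in JJN3 (428 to 946 CPM). In JJN3 the libraries of replicate 2 were often the highest in AP-1 transcripts. JUN and FOSL2 were highest in replicate 2 in 4 of 4 treatments, and JUNB, JUND and FOS in 3 of 4. Over all 11411 genes tested in JJN3, 7.90% were highest in replicate 2 in all 4 treatments and 20.1% in at least 3. These shares are not given for replicates 1 and 3. Replicate 3 was lowest in 4 of 4 treatments for JUNB and FOSL2 and in 3 of 4 for JUN and FOS. Which replicate, if any, is the odd one is thus not shown.

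Promoters of the members whose responses differ most are shown first: JUN, raised by both drugs in MM1.S, FOS, FOSB and FOSL2, which share a motif at nearly one place, and BATF, lowered by panobinostat. The windows are the 250 bases before each transcription start in RefSeq (GRCh38.p14), written on the gene's own strand. JUN lies at chr1:58784048-58784297 on the minus strand. FOS is at chr14:75278578-75278827, FOSB at chr19:45467746-45467995, FOSL2 at chr2:28392608-28392857 and BATF at chr14:75522219-75522468, each on the plus strand. Capitals mark the motif matches named after the sequences.
JUN: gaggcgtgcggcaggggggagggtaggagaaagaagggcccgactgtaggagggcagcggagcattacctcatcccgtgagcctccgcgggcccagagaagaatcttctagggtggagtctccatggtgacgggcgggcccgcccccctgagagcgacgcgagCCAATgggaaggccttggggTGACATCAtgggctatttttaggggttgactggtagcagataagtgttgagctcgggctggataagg
FOS: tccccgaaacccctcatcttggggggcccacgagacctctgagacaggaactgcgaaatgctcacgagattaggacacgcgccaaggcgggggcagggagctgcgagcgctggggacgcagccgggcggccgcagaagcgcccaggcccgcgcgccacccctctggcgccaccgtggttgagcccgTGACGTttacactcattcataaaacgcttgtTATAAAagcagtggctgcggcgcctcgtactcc
FOSB: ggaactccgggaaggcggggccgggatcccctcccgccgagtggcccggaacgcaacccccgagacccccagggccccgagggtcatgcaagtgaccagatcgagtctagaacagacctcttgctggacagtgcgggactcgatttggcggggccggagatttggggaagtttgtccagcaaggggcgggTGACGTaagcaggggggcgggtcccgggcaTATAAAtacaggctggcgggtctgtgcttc
FOSL2: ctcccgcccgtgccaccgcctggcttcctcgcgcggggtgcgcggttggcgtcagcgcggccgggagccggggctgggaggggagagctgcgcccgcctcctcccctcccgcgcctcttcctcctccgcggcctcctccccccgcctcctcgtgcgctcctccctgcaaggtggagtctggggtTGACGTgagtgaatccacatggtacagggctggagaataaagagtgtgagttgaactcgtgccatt
BATF: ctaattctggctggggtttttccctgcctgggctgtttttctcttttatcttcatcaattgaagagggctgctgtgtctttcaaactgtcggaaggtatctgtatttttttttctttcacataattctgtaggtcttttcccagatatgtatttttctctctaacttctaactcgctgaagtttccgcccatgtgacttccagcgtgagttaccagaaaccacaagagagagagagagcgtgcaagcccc

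Each motif was searched on both strands. The sites were the AP-1 site TGANTCA, the cyclic AMP response element TGACGTCA, a shorter form of that element written TGACGT, the variant TGACATCA known from the JUN promoter, the TATA box with the letters TATAAA, the CCAAT box with the letters CCAAT, and the serum response CArG box. The shorter form is contained in the whole element, so these can overlap. JUN held TGACATCA at positions -67 to -60 from the start and CCAAT at -87 to -83. FOS, FOSB and FOSL2 each held TGACGT, starting at -64, -60 and -66. FOS and FOSB also held TATAAA, starting at -33 and -30. The BATF window held no match. JUND, not shown, held the whole element at -200 to -193 and a further short form at -87 to -82, and JUNB, not shown, held a TATA box and a CCAAT box. Of 35116 RefSeq promoter windows of this length, 7.10% held TGACGT, 2.38% held TGACATCA, 1.65% held the whole element, 10.7% held a TATA box, 32.0% held a CCAAT box, 1.16% held a CArG box and 6.57% held TGANTCA. Neither the CArG box nor TGANTCA was found in the windows of the 7 members with a RefSeq entry. FOSL1 is not among these members. The search covered only the 250 bases before the start and only these forms of each motif. Sites farther upstream, or in other forms, were not searched, so their absence is not shown.

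Levels below are CPM scaled by TMM over the 24 libraries, listed for replicates 1, 2 and 3, and differences are edgeR log2 fold changes ± SE with p adjusted over all genes tested in the fit. A gene is called at an adjusted p under 0.05, and means are given ± SD of 3 libraries. Where groups are said not to overlap, or pairs to go the same way, the share of all genes doing so is not given. Such remarks describe these libraries only. In each line 7 of the 8 members passed the filter on low counts. FOSL1 did not: its highest library had 7 counts, in JJN3 with both drugs. FOS and FOSB in MM1.S passed only through the 6 libraries that hold panobinostat, with or without CX-5461, so they had to differ there. In JJN3, FOSB passed through the 3 combination libraries alone, and FOS would not have passed without libraries that hold panobinostat. In bulk RNA, fewer cells of a kind and less RNA per cell cannot be told apart.

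**Figure D1:**
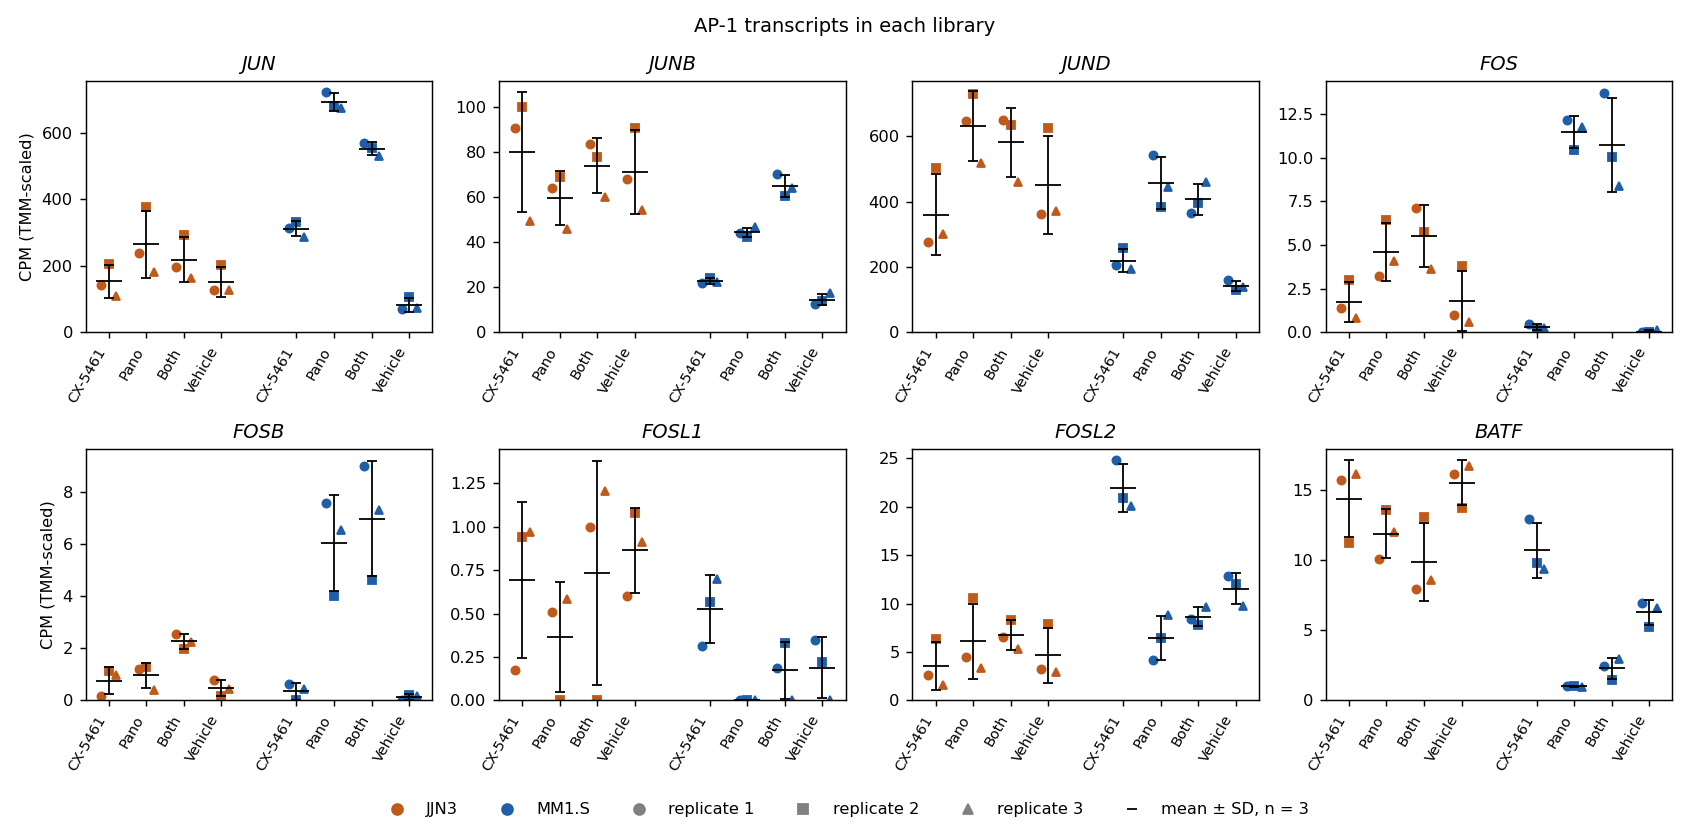
Level of each AP-1 transcript in TMM-scaled CPM (linear axis from 0, differing between panels) by treatment, with a point per library (symbol by replicate number, colour by line) and bars for the mean ± SD of 3. In MM1.S, JUN sits at 676 to 723 CPM with panobinostat, above all other groups, and in JJN3 replicate 2 of JUN is the highest library of every group.

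CX-5461 alone raised 5 members in MM1.S: JUN, JUNB, JUND, FOSL2 and BATF. These are 5 of 7 members tested, and 5 of the 5 that did not need panobinostat libraries to pass the filter, beside 16.7% of all 12030 genes called, 9.68% higher and 7.06% lower. The median log2 fold change of all genes was 0.01. The 7 plasma cell markers summed to 4617 to 4779 CPM with CX-5461, against 5647 to 6003 CPM with vehicle, and 3 of 7 were called lower. The 9 markers of other cell types summed to 18.9 to 24.0 CPM with CX-5461 and 18.0 to 21.2 CPM with vehicle. Their part in the AP-1 changes was not tested.

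JUN, the founding subunit and a target of JNK, was at 314, 333 and 288 CPM with CX-5461 and at 70.6, 108 and 72.2 CPM with vehicle in MM1.S. All treated libraries lay above all vehicle libraries by a wide margin (log2 fold change 1.91 ± 0.12, adjusted p = 4.15e-11). JUNB, a subunit with weaker activating power in many settings, was at 21.8, 24.3 and 22.2 CPM with CX-5461 and at 12.5, 13.8 and 17.5 CPM with vehicle (0.64 ± 0.14, adjusted p = 0.00264). JUND, the family member that resting cells commonly express, was at 207, 259 and 195 CPM with CX-5461 and at 160.0, 130.3 and 138 CPM with vehicle (0.63 ± 0.13, adjusted p = 0.00142). For JUNB and JUND too, the treated and vehicle libraries did not overlap.

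FOSL2, also known as FRA2, was at 24.8, 20.9 and 20.1 CPM with CX-5461 and at 12.9, 12.02 and 9.75 CPM with vehicle in MM1.S (log2 fold change 0.93 ± 0.19, adjusted p = 0.00131). BATF was at 12.9, 9.79 and 9.36 CPM with CX-5461 and at 6.96, 5.25 and 6.61 CPM with vehicle (0.75 ± 0.23, adjusted p = 0.0232). Neither gene's groups overlapped. FOS had 3, 1 and 2 counts per library with CX-5461 and 0, 0 and 1 with vehicle, a ratio of 4.76 (exact 95% counting interval 0.578 to 219). FOSB had 4, 0 and 3 counts with CX-5461 and 0, 1 and 1 with vehicle, a ratio of 2.78 (0.529 to 27.4). Both intervals include 1, and at these counts no difference was detectable (adjusted p = 0.24 and 0.454). FOSL1 had 2, 4 and 5 counts with CX-5461 and 2, 1 and 0 with vehicle (ratio 2.91, 0.769 to 16.3). All such intervals cover counting error only.

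The calls of JUNB, JUND and FOSL2 rest on the spread within MM1.S: with the spread estimated over all 24 libraries their adjusted p was 0.0879, 0.0928 and 0.0799. In that fit 2 members were called, beside 826 genes higher and 494 lower of 12872. The call of BATF was lost without CX-5461 replicate 1 (adjusted p = 0.144), vehicle replicate 2 (0.0904) or vehicle replicate 3 (0.0633), and in DESeq2 (0.0568).

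Panobinostat moved every member tested in MM1.S, 5 up and 2 down, beside 69.8% of all genes called, 36.9% higher and 32.9% lower. Without FOS and FOSB, 3 rose and 2 fell of 5. The median log2 fold change of all genes was 0.07. With so many genes called, the number of calls is not a result about AP-1, and the values are given for their size and sign.

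JUN was at 723, 681 and 676 CPM with panobinostat and at 70.6, 108 and 72.2 CPM with vehicle in MM1.S (log2 fold change 3.07 ± 0.13, adjusted p = 2.08e-16). JUNB was at 44.3, 42.6 and 46.6 CPM with panobinostat, against 12.5 to 17.5 CPM with vehicle (1.61 ± 0.14, adjusted p = 1.48e-10). JUND was at 543, 385 and 446 CPM with panobinostat, against 130.3 to 160.0 CPM with vehicle (1.69 ± 0.13, adjusted p = 5.78e-11). All JUN family libraries with panobinostat lay above all with vehicle.

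FOS, the immediate early partner of JUN, had 61, 60 and 63 counts with panobinostat and 0, 0 and 1 with vehicle in MM1.S, at 12.2, 10.4 and 11.8 CPM with the drug. FOSB, a close relative of FOS, had 38, 23 and 35 counts with panobinostat and 0, 1 and 1 with vehicle, at 7.58, 3.999 and 6.53 CPM with the drug. Both were near absent without panobinostat and present in every library with it. The ratio was 187 for FOS (exact 95% counting interval 33.1 to 7421) and 48.7 for FOSB (13.1 to 408). Both passed the filter only through libraries with panobinostat, so a call here was fixed beforehand and no p-value is given. Fitted fold changes against 1 and 2 counts depend on the prior count and are not given either.

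FOSL2 and BATF went the other way in MM1.S. FOSL2 was at 4.19, 6.43 and 8.77 CPM with panobinostat and at 12.9, 12.02 and 9.75 CPM with vehicle, without overlap, and fell by 0.82 ± 0.23 on the log2 scale (adjusted p = 0.00239, or 0.0586 with the spread of all 24 libraries). BATF was at 0.998, 1.04 and 0.933 CPM with panobinostat and at 6.96, 5.25 and 6.61 CPM with vehicle, and fell by 2.64 ± 0.34 (adjusted p = 2.14e-07). BATF therefore rose with CX-5461 and fell with panobinostat in one line. FOSL1 had 0 counts in the 3 panobinostat libraries, which allows up to 0.186 CPM, and 2, 1 and 0 counts with vehicle, so that no fold is given.

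Together with these changes the summed level of the 7 plasma cell markers was 462 to 670 CPM with panobinostat, against 5647 to 6003 CPM with vehicle in MM1.S. The markers of other cell types summed to 13.97 to 21.6 CPM with panobinostat and 18.0 to 21.2 CPM with vehicle, with COL1A1 at 13.3 ± 4.18 CPM with panobinostat and 0.241 ± 0.0807 CPM with vehicle. Their part in the AP-1 changes was not tested. HOOK2, which overlaps JUNB on the opposite strand, averaged 42.2 ± 5.93 CPM with panobinostat and 12.2 ± 2.14 CPM with vehicle (log2 fold change 1.81 ± 0.17, adjusted p = 7.48e-10). With the strand setting of the counting not given, reads of JUNB and HOOK2 cannot be told apart where they overlap. FOSL2-AS1, antisense to FOSL2, had at most 3 counts in any group.

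**Figure D2:**
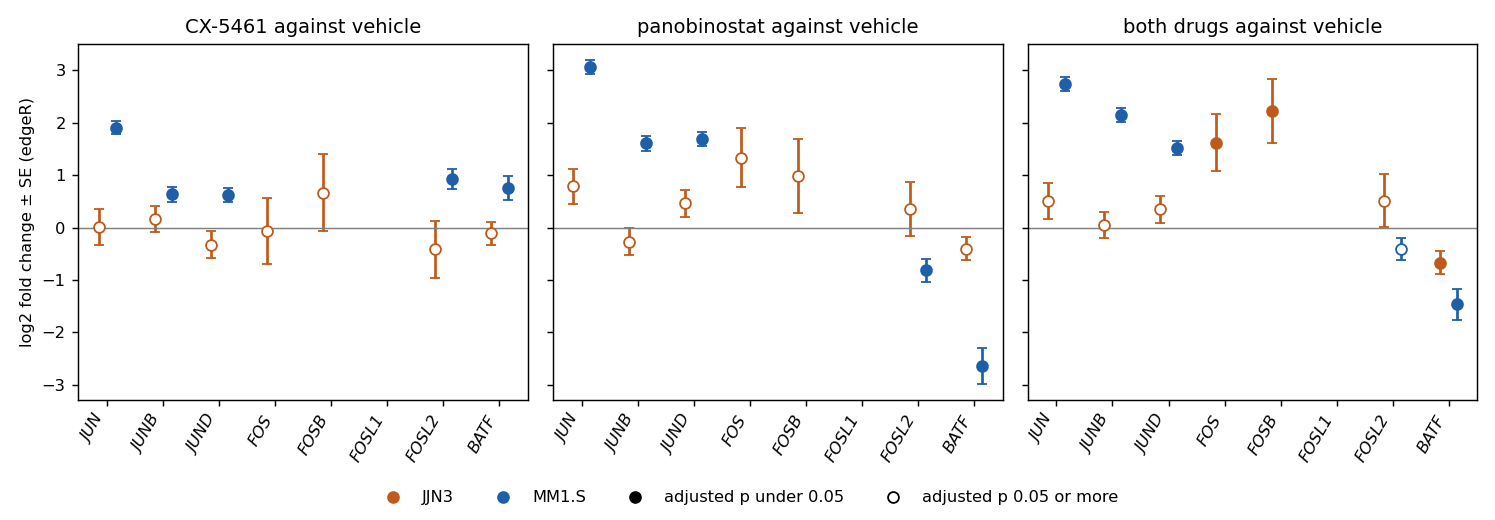
Log2 fold change ± SE of each member against vehicle for CX-5461, panobinostat and both drugs, in JJN3 and MM1.S (edgeR; filled at an adjusted p under 0.05), without FOSL1, which was not tested, and without FOS and FOSB of MM1.S, whose vehicle libraries hold 1 and 2 counts. JUN in MM1.S reaches 1.91, 3.07 and 2.74, and no JJN3 point of the single drugs is filled.

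Both drugs together left MM1.S with 5 members above vehicle and BATF below it, beside 70.2% of all genes called, 37.0% higher and 33.2% lower. Without FOS and FOSB, 3 rose and 1 fell of 5. JUN was at 571, 555 and 532 CPM with both drugs and at 70.6, 108 and 72.2 CPM with vehicle (log2 fold change 2.74 ± 0.13, adjusted p = 1.30e-15). JUNB was at 70.6, 60.7 and 64.1 CPM with both drugs and at 12.5, 13.8 and 17.5 CPM with vehicle (2.16 ± 0.13, adjusted p = 3.29e-13). JUND was at 367, 397 and 459.5 CPM with both drugs, against 130.3 to 160.0 CPM with vehicle (1.52 ± 0.13, adjusted p = 3.27e-10). None of these groups overlapped.

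FOS had 73, 61 and 46 counts with both drugs, against 0, 0 and 1 with vehicle in MM1.S (ratio 175, exact 95% counting interval 31.0 to 6942). FOSB had 48, 28 and 40 counts, against 0, 1 and 1 (ratio 56.3, 15.2 to 471). The filter fixed the calls of FOS and FOSB here too, so no p-value is given. BATF was at 2.44, 1.49 and 2.92 CPM with both drugs and at 6.96, 5.25 and 6.61 CPM with vehicle, and fell by 1.47 ± 0.29 (adjusted p = 7.94e-05). FOSL2 was at 8.45, 7.76 and 9.68 CPM with both drugs and at 12.9, 12.02 and 9.75 CPM with vehicle. Its groups just failed to overlap, and the difference of -0.41 ± 0.22 did not pass (adjusted p = 0.0914), except without panobinostat replicate 1, which enters through the shared spread (adjusted p = 0.0432).

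Against panobinostat alone, adding CX-5461 in MM1.S changed 1 member, beside 4.08% of all genes called. JUNB was at 70.6, 60.7 and 64.1 CPM with both drugs and at 44.3, 42.6 and 46.6 CPM with panobinostat, again without overlap (log2 fold change 0.55 ± 0.12, adjusted p = 0.00842). The call was lost without combination replicate 1 (adjusted p = 0.0735) and with the spread of all 24 libraries (0.201). HOOK2 differed by 0.04 ± 0.15 in that comparison (adjusted p = 0.921). JUN was lower with both drugs, at 532 to 571 CPM, than with panobinostat, at 676 to 723 CPM, and the groups did not overlap. The difference of -0.33 ± 0.12 did not pass (adjusted p = 0.108), although it did without vehicle replicate 2 (0.0316) and with no filter on low counts (0.0422). BATF was at 1.49 to 2.92 CPM with both drugs and at 0.933 to 1.04 CPM with panobinostat (1.17 ± 0.41, adjusted p = 0.103).

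To see whether the combined effect equals the single effects added up on the log2 scale, their sum was subtracted from it. In MM1.S this departure from additivity was called for JUN and JUND, both below 0, beside 5.52% of all genes called. For JUN the single drugs summed to 4.97 and the combination reached 2.74, a departure of -2.23 ± 0.17 (adjusted p = 4.98e-09). For JUND the sum was 2.31 and the combination 1.52, a departure of -0.79 ± 0.18 (adjusted p = 0.00947, or 0.237 with the spread of all 24 libraries). JUNB lay close to the sum, with 2.24 for the single drugs, 2.16 for the combination and a departure of -0.09 ± 0.19 (adjusted p = 0.857). BATF departed by 0.42 ± 0.46 and FOSL2 by -0.52 ± 0.30, and neither passed (adjusted p = 0.683 and 0.363).

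**Figure D3:**
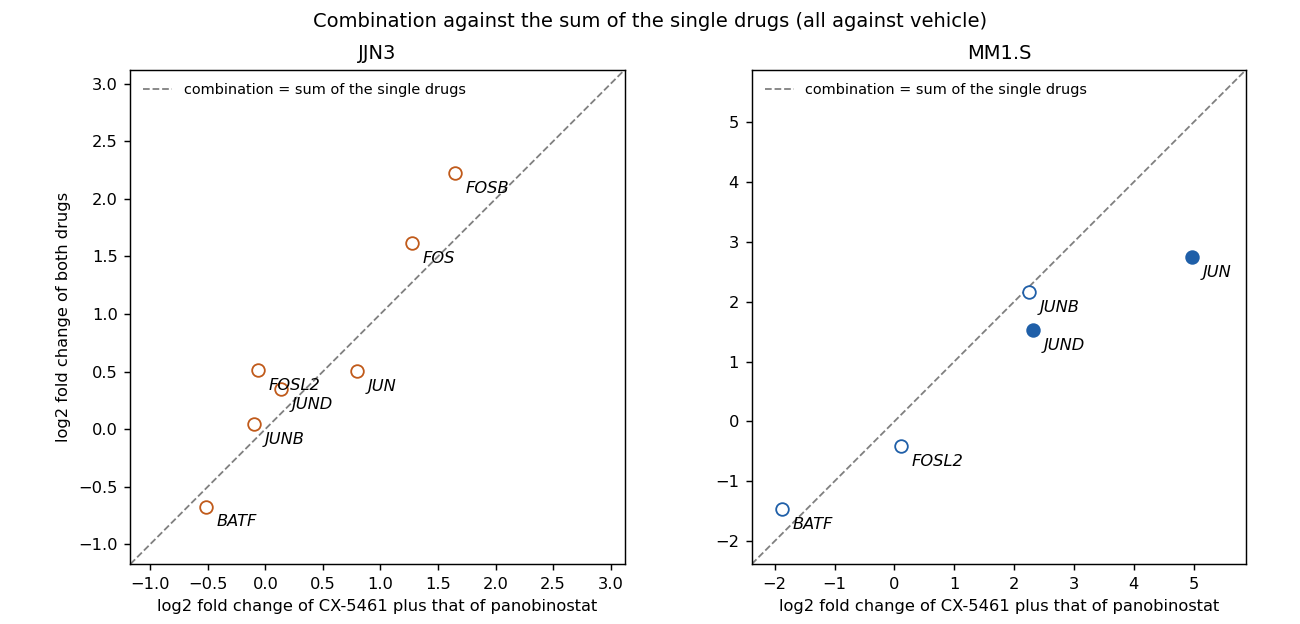
Log2 fold change of both drugs (vertical) against the single-drug log2 fold changes added together (horizontal), all against vehicle, with a point per member and a panel per line, a dashed line at equality, filled points at a departure with an adjusted p under 0.05, and FOS and FOSB of MM1.S left out for their vehicle counts. JUN in MM1.S lies at 4.97 and 2.74, far below the line, and no JJN3 point is filled.

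In JJN3, CX-5461 alone changed none of the 7 members tested, beside 0% of all 11411 genes by edgeR. At an unadjusted p under 0.05 there were 633 genes, and DESeq2 called 18. Log2 fold changes of the members ran from -0.42 for FOSL2 to 0.66 for FOSB, with SEs of 0.21 to 0.73. JUN was at 144, 207 and 110.0 CPM with CX-5461 and at 126, 204 and 126 CPM with vehicle, so the groups lay over each other. JUNB was at 90.8, 100.01 and 49.7 CPM with CX-5461, against 68.3, 91.0 and 54.4 CPM with vehicle, and JUND at 277, 504 and 301 CPM, against 361, 626 and 371 CPM. FOS had 8, 16 and 5 counts with CX-5461 and 5, 21 and 4 with vehicle, and FOSL1 had 1, 5 and 6 counts with CX-5461 and 3, 6 and 6 with vehicle. For JUN, JUNB, JUND and FOS, replicate 2 was the highest library of both groups. With the replicate number as a block, 1.38% of genes were called, and again no member.

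Panobinostat in JJN3 changed no member in the fit without pairing, beside 26.0% of all genes called. The replicate numbers pair the JJN3 libraries, and with the replicate number as a block 3 of 7 members were called, all higher: JUN, JUND and FOS, beside 41.9% of all genes. Leaving FOS and FOSB aside, JUN and JUND remain. The members' share is close to that of all genes, so the number of calls is not a result about AP-1. JUN was at 238, 378 and 182 CPM with panobinostat and at 126, 204 and 126 CPM with vehicle. The groups overlap, yet the treated library was the higher one in each of the 3 pairs (log2 fold change 0.76 with the block, adjusted p = 3.32e-08, and 0.79 ± 0.34 without it, adjusted p = 0.109). JUND was at 647, 731 and 518 CPM with panobinostat and at 361, 626 and 371 CPM with vehicle (0.50 with the block, adjusted p = 0.0225, and 0.46 ± 0.26 without it, adjusted p = 0.207). FOS had 19, 30 and 21 counts with panobinostat and 5, 21 and 4 with vehicle (1.39 with the block, adjusted p = 0.00616, and 1.33 ± 0.56 without it, adjusted p = 0.0902). The filter would not have kept FOS without libraries that hold panobinostat, which limits its call. JUND and FOS were likewise higher with panobinostat in each pair. Leaving out the 4 libraries of replicate 2 also gave these 3 calls (adjusted p = 0.00604, 0.00898 and 0.0136), beside 25.4% of all genes, and leaving out vehicle replicate 2 alone gave JUND (adjusted p = 0.03235) and FOS (adjusted p = 0.00607).

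JUNB in JJN3 was at 64.1, 69.1 and 46.1 CPM with panobinostat and at 68.3, 91.0 and 54.4 CPM with vehicle, a difference of -0.27 ± 0.25 that did not pass (adjusted p = 0.47). BATF was at 10.1, 13.6 and 12.05 CPM with panobinostat and at 16.2, 13.7 and 16.7 CPM with vehicle (-0.40 ± 0.22, adjusted p = 0.189). FOSL2 was at 4.43, 10.55 and 3.30 CPM with panobinostat and at 3.20, 7.93 and 2.88 CPM with vehicle (0.35 ± 0.52, adjusted p = 0.662). As with JUN, replicate 2 of FOSL2 lay above both others in every treatment. FOSB had 7, 6 and 2 counts with panobinostat and 4, 1 and 3 with vehicle (0.99 ± 0.71, adjusted p = 0.334), and FOSL1 had 3, 0 and 3 counts with panobinostat and 3, 6 and 6 with vehicle. Plasma cell markers summed to 790.4 to 830.3 CPM with panobinostat and 1239 to 1356 CPM with vehicle. Markers of other cell types summed to 468 to 946 CPM with panobinostat and 428 to 657 CPM with vehicle, and COL1A1 had 32 counts over the panobinostat libraries and 0 over those with vehicle. Their part in these results was not tested.

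**Figure D4:**
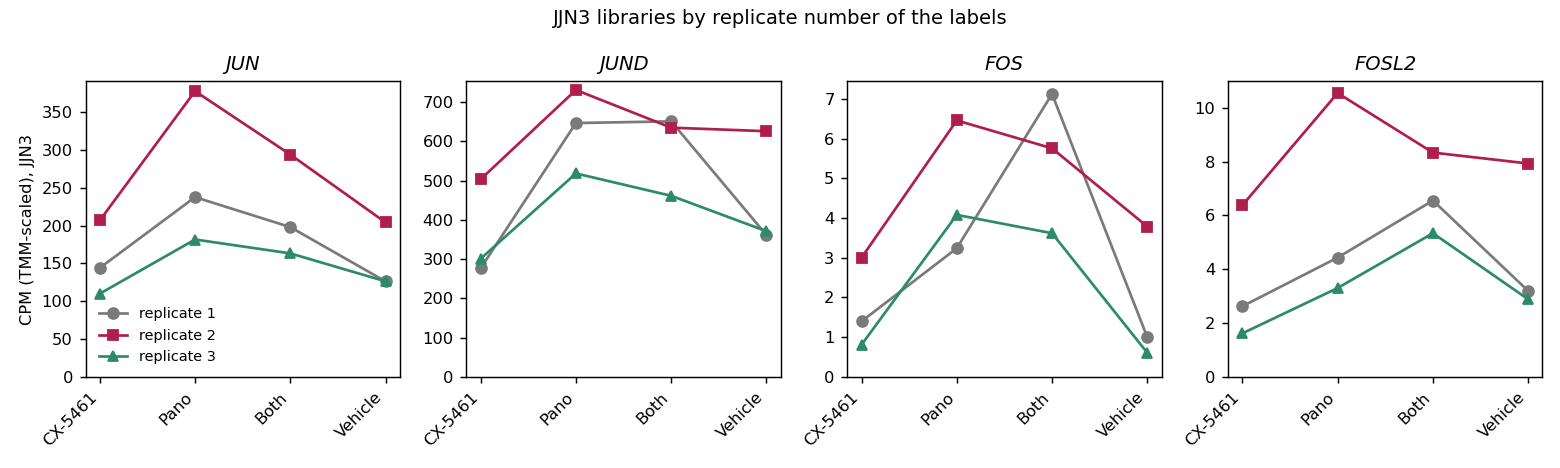
Levels of JUN, JUND, FOS and FOSL2 in the 12 JJN3 libraries, in TMM-scaled CPM from 0, by treatment, with lines joining libraries of the same replicate number. Replicate 2 is the highest of 3 in every treatment for JUN and FOSL2, and all 3 lines of JUN, JUND and FOS are higher with panobinostat than with vehicle.

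With both drugs in JJN3, FOS and FOSB rose and BATF fell, beside 39.2% of all genes called. Leaving aside FOS and FOSB, which passed the filter through libraries with panobinostat, 0 of 5 members rose and 1 fell. FOS had 50, 29 and 21 counts with both drugs and 5, 21 and 4 with vehicle, the lowest treated library (3.62 CPM) lying just below the highest vehicle library (3.79 CPM) (log2 fold change 1.62 ± 0.54, adjusted p = 0.0256). FOSB had 18, 10 and 13 counts with both drugs and 4, 1 and 3 with vehicle (2.22 ± 0.61). It passed the filter only through the combination libraries, so its call and lack of overlap were fixed beforehand and no p-value is given. BATF was at 7.98, 13.1 and 8.61 CPM with both drugs and at 16.2, 13.7 and 16.7 CPM with vehicle, also without overlap, and fell by 0.67 ± 0.22 (adjusted p = 0.0219). The calls of FOS and BATF were lost on leaving out vehicle replicate 1 (adjusted p = 0.0927 and 0.0507), vehicle replicate 3 (0.111 and 0.0666) or combination replicate 1 (0.105 and 0.113). That of FOS was also lost without combination replicate 2 (0.0501) and that of BATF without combination replicate 3 (0.0794).

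JUN in JJN3 was at 198, 294 and 163 CPM with both drugs and at 126, 204 and 126 CPM with vehicle, higher in each pair. Its log2 fold change was 0.51 ± 0.33 without pairing (adjusted p = 0.257) and 0.50 with the replicate block (adjusted p = 1.38e-05), beside 53.5% of all genes called with the block. JUND was at 651, 635 and 461 CPM with both drugs and at 361, 626 and 371 CPM with vehicle (0.35 ± 0.26, adjusted p = 0.305, or 0.0469 without vehicle replicate 2). JUNB was at 83.8, 78.0 and 60.3 CPM with both drugs, against 68.3, 91.0 and 54.4 CPM with vehicle, and differed by 0.05 ± 0.25 (adjusted p = 0.90). FOSL2 was at 6.55, 8.34 and 5.34 CPM with both drugs and at 3.20, 7.93 and 2.88 CPM with vehicle (0.52 ± 0.51, adjusted p = 0.445). Without the 4 libraries of replicate 2, 6 of 7 members were called, beside 38.2% of all genes, with JUN (adjusted p = 0.0246), JUND (0.00979) and FOSL2 (0.048) added. FOSL1 had 7, 0 and 7 counts with both drugs and 3, 6 and 6 with vehicle. Plasma cell markers summed to 514 to 538 CPM with both drugs and 1239 to 1356 CPM with vehicle, those of other cell types to 537 to 893 CPM with both drugs and 428 to 657 CPM with vehicle, and COL1A1 had 98 counts with both drugs and 0 with vehicle. Their part in these results was not tested.

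Both drugs against panobinostat alone changed 0 of 7 members in JJN3, beside 0.903% of all genes. JUN was at 198, 294 and 163 CPM with both drugs and at 238, 378 and 182 CPM with panobinostat, lower in each pair (log2 fold change -0.28 ± 0.33, adjusted p = 0.777, and -0.26 with the replicate block, adjusted p = 0.0425, beside 12.3% of all genes). No member was called for a departure from additivity in JJN3, beside 0% of all genes by edgeR (0.920% with the replicate block, again no member), with 564 genes at an unadjusted p under 0.05 and 18 called by DESeq2. The members' departures ran from -0.29 to 0.58.

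Whether a treatment acted differently in the lines was tested in 1 fit of all 24 libraries, subtracting the MM1.S effect from the JJN3 effect. For CX-5461 the difference was called for JUN alone, at -1.89 ± 0.39 (adjusted p = 0.0161), beside 1.32% of all 12872 genes. The CX-5461 effect on JUN was 0.01 ± 0.34 in JJN3 and 1.91 ± 0.12 in MM1.S. The call was lost without MM1.S vehicle replicate 1 (adjusted p = 0.0664), MM1.S vehicle replicate 3 (0.0653) or JJN3 CX-5461 replicate 1 (0.0607), with values of -1.84 to -1.79. The replicate block added FOSL2 at -1.35 (adjusted p = 0.0183, and 0.349 without the block), beside 4.52% of all genes, with effects of -0.42 ± 0.54 in JJN3 and 0.93 ± 0.19 in MM1.S. JUND, at -0.96 ± 0.32, did not pass (adjusted p = 0.205), but did without JJN3 CX-5461 replicate 2 (0.0221) and without all JJN3 libraries of replicate 2 (0.0134, beside 1.51% of all genes).

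For panobinostat the lines differed in 6 of 7 members, or 4 of 5 without FOS and FOSB, beside 33.3% of all genes. The effect on JUN was 0.79 ± 0.34 in JJN3 and 3.07 ± 0.13 in MM1.S, a difference of -2.26 ± 0.39 (adjusted p = 0.000175). That on JUNB was -0.27 ± 0.25 in JJN3 and 1.61 ± 0.14 in MM1.S, a difference of -1.85 ± 0.31 (adjusted p = 3.13e-05). That on JUND was 0.46 ± 0.26 in JJN3 and 1.69 ± 0.13 in MM1.S, a difference of -1.20 ± 0.32 (adjusted p = 0.00632). The effect on all 3 JUN family genes was thus lower in JJN3, beyond the spread between replicates. BATF was the one called member with a difference above 0 in the fit without pairing, at 2.25 ± 0.41 (adjusted p = 7.60e-05), its effects being -0.40 ± 0.22 in JJN3 and -2.64 ± 0.34 in MM1.S. FOS and FOSB had differences of -5.77 and -4.39, fitted values that depend on the prior count. In the fits of each line, neither would have passed the filter without libraries that hold panobinostat. The MM1.S effect within these differences was thus fixed beforehand, so no p-value is given and their calls carry no weight as tests. FOSL2 differed by 1.19 ± 0.57 (adjusted p = 0.112), or by 1.18 with the replicate block (adjusted p = 0.00737, beside 40.9% of all genes), and passed without JJN3 vehicle replicate 2 (0.0195).

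For the combination the lines differed in 5 of 7 members, or 3 of 5 without FOS and FOSB, all below 0, beside 32.8% of all genes. JUN differed by -2.21 ± 0.39 (adjusted p = 0.000223), JUNB by -2.09 ± 0.30 (adjusted p = 4.78e-06) and JUND by -1.15 ± 0.32 (adjusted p = 0.00876). The combination effect on JUNB was 0.05 ± 0.25 in JJN3 and 2.16 ± 0.13 in MM1.S. FOS and FOSB had fitted differences of -5.38 and -3.36, with the same limit from the filter, so no p-value is given. The call of FOSB was also lost without JJN3 vehicle replicate 1 or MM1.S vehicle replicate 1. FOSL2, at 0.95 ± 0.55, did not pass (adjusted p = 0.199), but did with the replicate block (0.0153, beside 40.4% of all genes), without JJN3 vehicle replicate 2 (0.0396) and without all JJN3 libraries of replicate 2 (0.0122, beside 30.7% of all genes). BATF, at 0.81 ± 0.36, did not pass (adjusted p = 0.0892).

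The lines also started from different levels. Of 7 members, 5 were higher and 1 lower in JJN3 vehicle than in MM1.S vehicle libraries, beside 63.7% of all genes called, and without FOS and FOSB 4 were higher and 1 lower of 5. The 2 lines were counted into separate tables, and levels across them were scaled together here. JUNB was at 68.3, 91.0 and 54.4 CPM in JJN3 and at 12.5, 13.8 and 17.5 CPM in MM1.S (log2 fold change 2.28 ± 0.23, adjusted p = 1.71e-09). JUND was at 361, 626 and 371 CPM in JJN3 and at 160.0, 130.3 and 138 CPM in MM1.S (1.67 ± 0.23, adjusted p = 2.46e-06). The vehicle libraries of the lines did not overlap in either gene, while HOOK2 differed by 0.05 ± 0.23 (adjusted p = 0.877).

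BATF was at 16.2, 13.7 and 16.7 CPM in JJN3 vehicle libraries and at 6.96, 5.25 and 6.61 CPM in those of MM1.S (log2 fold change 1.30 ± 0.23, adjusted p = 1.12e-05). JUN was at 126, 204 and 126 CPM in JJN3 and at 70.6, 108 and 72.2 CPM in MM1.S (0.87 ± 0.28, adjusted p = 0.011, lost without JJN3 vehicle replicate 2 at 0.0722). FOSL2 was the one member lower in JJN3, at 3.20, 7.93 and 2.88 CPM, against 12.9, 12.02 and 9.75 CPM in MM1.S (-1.31 ± 0.39, adjusted p = 0.00526, lost without JJN3 vehicle replicate 3 at 0.059). FOS had 5, 21 and 4 counts in JJN3 and 0, 0 and 1 in MM1.S (ratio 28.7, exact 95% counting interval 4.76 to 1169, adjusted p = 0.00034). FOSB had 8 counts over the JJN3 group and 2 over the MM1.S group (ratio 3.82, 0.763 to 36.9) and was not called (adjusted p = 0.149).

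Ordered by mean level over the 8 groups, JUN was highest in MM1.S with panobinostat (693 ± 26.0 CPM), followed by MM1.S with both drugs (552 ± 19.5) and MM1.S with CX-5461 (312 ± 22.7), of which the first and second did not overlap their next neighbour. The 4 JJN3 groups came next, at 266 ± 101 CPM with panobinostat down to 152 ± 44.99 CPM with vehicle, each overlapping its neighbour, and MM1.S with vehicle was last (83.5 ± 21.0). JUND had its 2 highest means in JJN3, with panobinostat (632 ± 107 CPM) and with both drugs (582 ± 105), and its 6 highest groups overlapped in sequence. JUNB ran from 80.2 ± 26.8 CPM in JJN3 with CX-5461 to 14.6 ± 2.60 CPM in MM1.S with vehicle. MM1.S with both drugs (65.1 ± 5.00) lay among the JJN3 groups, so that the vehicle gap in JUNB was not seen there. BATF was highest in JJN3 with vehicle (15.5 ± 1.60 CPM) and lowest in MM1.S with panobinostat (0.991 ± 0.0555). FOSL2 peaked in MM1.S with CX-5461 (21.9 ± 2.51 CPM), clear of all other groups.

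For each member tested in both lines, the 2 genes with the most similar response were taken by the root mean square difference over the 6 log2 fold changes against vehicle, among 10600 genes. Those nearest to JUN were DPYSL3 (0.16) and OSBPL6 (0.28). DPYSL3 had log2 fold changes of 1.83, 3.09 and 2.43 with CX-5461, panobinostat and both drugs in MM1.S, so it too was lower with both drugs than with panobinostat. Nearest to JUNB were ETS2 and TNKS1BP1 (both 0.18), nearest to JUND were TMEM30A and SRGAP2C (both 0.16), and nearest to FOSL2 were BMP1 (0.21) and LRATD2 (0.23). SRGAP2C has near-identical copies, so its counts are uncertain. BATF was nearest to AURKB (0.17) and MCM7 (0.19), which had log2 fold changes of -2.53 and -2.36 with panobinostat in MM1.S. FOS was nearest to TTYH3 (0.41) and RASD1 (0.47), and FOSB to SAT1 (0.21) and RHOV (0.43). These are descriptions, and for FOS and FOSB they rest on fitted values that depend on the prior count.

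Of 8 basic leucine zipper partners of AP-1 tested in MM1.S, 4 were called higher and 0 lower with CX-5461, beside 9.68% and 7.06% of all genes, and the median log2 fold change was 0.44. CREB5 was at 33.4 ± 14.8 CPM with CX-5461 and 2.00 ± 0.537 CPM with vehicle (log2 fold change 4.08 ± 0.33, adjusted p = 1.01e-07). ATF3, a stress-induced partner of JUN, was at 152 ± 27.7 CPM with CX-5461 and 16.8 ± 9.12 CPM with vehicle (3.22 ± 0.31, adjusted p = 7.41e-05). With panobinostat 5 partners rose and 3 fell in MM1.S (median 0.75), beside 69.8% of all genes called. CREB5 was at 4.15 ± 0.33 (adjusted p = 3.33e-09) and ATF3 at 2.49 ± 0.31 (adjusted p = 4.28e-05), and JDP2, a repressor at AP-1 sites, at -2.02 ± 0.70 (adjusted p = 0.0147). The value of JDP2 rests on vehicle replicate 2, which holds 27 of 37 vehicle counts: the groups overlap, at 0.399 to 0.695 CPM with panobinostat and 0.522 to 5.90 CPM with vehicle, and without that library it was -0.61 (adjusted p = 0.404). As with JUN, the combination fell short of the sum of the single drugs for ATF3 (departure -2.35 ± 0.41, adjusted p = 0.00947) and CREB5 (-4.48 ± 0.41, adjusted p = 1.75e-06). In JJN3, CREB5 alone of 8 partners was called, higher with panobinostat (1.66 ± 0.41, adjusted p = 0.00624) and with both drugs (1.21 ± 0.41, adjusted p = 0.0274). Of all genes, 26.0% and 39.2% were called in these comparisons. The call of CREB5 with both drugs was lost without vehicle replicate 1 or 3 or combination replicate 2 or 3 (adjusted p = 0.0723 to 0.10). Between the lines the effect on ATF3 differed by -2.79 ± 0.65 for CX-5461 (adjusted p = 0.0297, or 0.107 with the replicate block) and -2.31 ± 0.66 for panobinostat (adjusted p = 0.00945, or 0.0572 with the block). The call for panobinostat was lost without JJN3 vehicle replicate 2 (0.0742). That for CX-5461 was lost on leaving out any 1 of the 3 JJN3 vehicle libraries, JJN3 CX-5461 replicate 2, or MM1.S vehicle replicate 1 or 3 (0.051 to 0.179).

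IRF4, which binds with BATF, fell in MM1.S with CX-5461 by 1.26 ± 0.11 (adjusted p = 3.36e-09), with panobinostat by 0.83 ± 0.11 (adjusted p = 1.68e-07) and with both drugs by 1.58 ± 0.11 (adjusted p = 2.14e-12). It stood at 124 ± 5.63, 166 ± 23.5 and 98.6 ± 10.3 CPM in these groups, against 297 ± 13.9 CPM with vehicle. With CX-5461, IRF4 fell while BATF rose. In JJN3 IRF4 fell by 0.90 ± 0.16 with panobinostat (adjusted p = 0.000506) and by 1.26 ± 0.16 with both drugs (adjusted p = 9.93e-06). The panobinostat effect on IRF4 did not differ detectably between the lines (-0.05 ± 0.19, adjusted p = 0.887), whereas that on BATF did. IRF8, the other partner, fell in MM1.S with panobinostat by 2.33 ± 0.50 (adjusted p = 0.000208) and had 0 counts in JJN3 vehicle libraries, which allows up to 0.175 CPM (3 counts over the group).

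**Figure D5:**
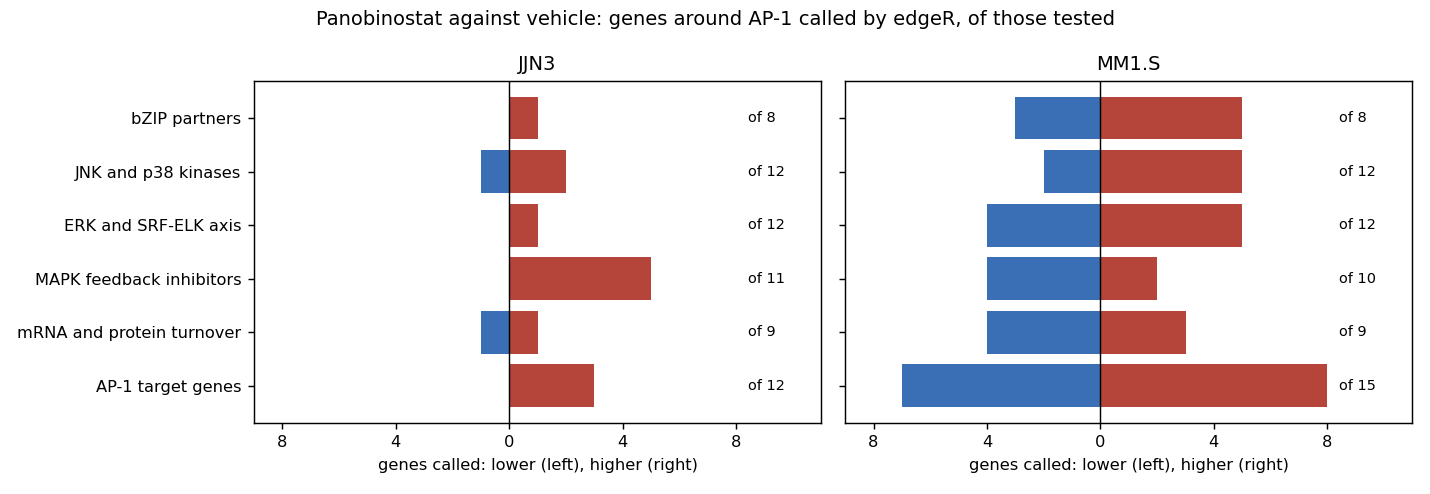
Genes of 6 lists around AP-1 called lower (left of 0) and higher (right of 0) with panobinostat against vehicle, in JJN3 and MM1.S (edgeR, without the replicate block), with the number tested beside each bar. In JJN3 the list with the most calls is the MAPK feedback inhibitors, 5 higher of 11, beside 26.0% of all genes called. In MM1.S 5 bZIP partners rose and 3 fell of 8, and 8 AP-1 target genes rose and 7 fell of 15, beside 69.8% of all genes called.

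Of 12 JNK and p38 pathway kinases, which activate JUN, 0 rose and 1 fell with CX-5461 in MM1.S, beside 16.7% of all genes called: MAP2K6, an activator of p38, by 0.87 ± 0.24 (adjusted p = 0.0115). That call was lost without vehicle replicate 1 (0.103), without CX-5461 replicate 2 (0.0669) and with the spread of all 24 libraries (0.387). With panobinostat 5 rose and 2 fell, beside 69.8% of all genes, with MAPK11, the p38 beta kinase, at 2.51 ± 0.24 (adjusted p = 1.23e-09), MAPK8, which encodes JNK1, at 0.91 ± 0.18 (adjusted p = 7.66e-05), and MAP2K7, an activator of JNK, at -0.47 ± 0.17 (adjusted p = 0.0162, lost without vehicle replicate 2 or 3 or panobinostat replicate 3 at 0.0651 to 0.0802). In JJN3 2 rose and 1 fell with panobinostat, beside 26.0% of all genes: MAP2K6 was at 1.68 ± 0.53 (adjusted p = 0.0421) and MAP2K7 at -0.88 ± 0.15 (adjusted p = 0.000328). The call of MAP2K6 was lost on leaving out any 1 of the vehicle libraries, panobinostat replicate 1 or 3, CX-5461 replicate 1 or 2 or combination replicate 1 (0.0553 to 0.124). MAPK8, at 0.30 ± 0.16, did not pass there (adjusted p = 0.18). With both drugs 5 rose and 1 fell in JJN3, beside 39.2% of all genes, MAP2K6 being at 1.82 ± 0.53 and MAP2K7 at -1.55 ± 0.15 (adjusted p = 0.0209 and 8.36e-07). Here MAP2K6 was lost without vehicle replicate 1 (0.0737) or 2 (0.0746) or combination replicate 3 (0.0513, at 1.20).

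Of 12 genes of the ERK and SRF-ELK axis, the route that feeds the FOS promoter, 0 rose and 2 fell with CX-5461 in MM1.S, beside 16.7% of all genes called. These were ELK4 (-0.43 ± 0.15, adjusted p = 0.0455) and SRF, the serum response factor (-0.29 ± 0.10, adjusted p = 0.0482). ELK4 was lost on leaving out any 1 of the vehicle libraries, CX-5461 replicate 1 or 3 or combination replicate 1 (0.0553 to 0.221), and SRF on leaving out vehicle replicate 1 or 3 or any 1 of the CX-5461 or combination libraries (0.0584 to 0.222). With panobinostat 5 rose and 4 fell in MM1.S, beside 69.8% of all genes, with ELK3 at -0.74 ± 0.13 (adjusted p = 2.11e-05), and SRF was at -0.33 ± 0.10 (adjusted p = 0.00566, or 0.052 without panobinostat replicate 3). In JJN3 ELK3 alone was called, beside 26.0% of all genes, at 0.62 ± 0.19 (adjusted p = 0.0226, lost without vehicle replicate 2 or 3 or panobinostat replicate 1 or 2 at 0.0619 to 0.101). With the replicate block 2 rose and 1 fell, beside 41.9%. SRF, at 0.29 ± 0.14, did not pass without the block (adjusted p = 0.147) and did with it (0.00917). The panobinostat effect on SRF differed between the lines by 0.64 ± 0.18 (adjusted p = 0.00597, or 0.0641 without MM1.S panobinostat replicate 3).

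MAPK feedback inhibitors are phosphatases and adaptors that MAP kinase signals induce and that dampen these signals. CX-5461 raised 3 of 10 in MM1.S, DUSP10 the most (1.98 ± 0.56, adjusted p = 0.0175), and lowered 1, DUSP6 (-0.63 ± 0.13, adjusted p = 0.00105), beside 16.7% of all genes. DUSP10 was lost without vehicle replicate 1 or 3 or CX-5461 replicate 1 or 2 (0.066 to 0.103). DUSP1, the phosphatase of JNK and p38 and itself an immediate early gene, was at 5.07 ± 0.804 CPM with CX-5461 and 2.32 ± 0.415 CPM with vehicle (log2 fold change 1.12 ± 0.27, adjusted p = 0.00466). It was at 38.2 ± 5.20 CPM with panobinostat (4.04 ± 0.21, adjusted p = 1.52e-14) and at 22.3 ± 2.98 CPM with both drugs, a difference of -0.78 ± 0.15 from panobinostat (adjusted p = 0.00382, or 0.0519 without panobinostat replicate 3). Its departure from additivity, -1.90 ± 0.31 (adjusted p = 0.000315), had the sign of that of JUN. With the spread of all 24 libraries the CX-5461 effect on DUSP1, its difference from panobinostat and its departure did not pass (0.13, 0.206 and 0.0614). With panobinostat 2 rose and 4 fell in MM1.S, beside 69.8% of all genes, DUSP10 being at 4.49 ± 0.44 (adjusted p = 3.70e-09) and DUSP4 at -1.56 ± 0.13 (adjusted p = 9.44e-11). In JJN3 5 of 11 rose and 0 fell, beside 26.0% of all genes, and with the replicate block 6 rose and 1 fell, beside 41.9%. SPRY2 was at 1.16 ± 0.38 (adjusted p = 0.0331, lost without vehicle replicate 1 or 3 or panobinostat replicate 1 or 3 at 0.0641 to 0.233), and DUSP1 was at 0.01 ± 0.42 (adjusted p = 0.987). The panobinostat effect on DUSP1 in JJN3 differed from that in MM1.S by -4.001 ± 0.52 (adjusted p = 1.75e-06).

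Of 9 genes that control the decay of AP-1 mRNAs or proteins, 3 rose and 4 fell with panobinostat in MM1.S, beside 69.8% of all genes called, ZFP36, which binds AU-rich mRNA elements, at 2.29 ± 0.70 (adjusted p = 0.0171, or 0.0574 without vehicle replicate 2 and 0.0572 without panobinostat replicate 2) and its relative ZFP36L1 at -0.76 ± 0.15 (adjusted p = 0.000132). In JJN3 1 rose, ZFP36L2 at 0.67 ± 0.16 (adjusted p = 0.00506), and 1 fell, ELAVL1 at -0.42 ± 0.15 (adjusted p = 0.0438), beside 26.0% of all genes. ELAVL1 was lost on leaving out any 1 of the vehicle libraries, panobinostat replicate 1 or 3 or CX-5461 replicate 1 (0.0505 to 0.173), and with the replicate block 1 rose and 2 fell, beside 41.9%. CX-5461 in MM1.S raised 1 of them and lowered 0, beside 16.7% of all genes, ZFP36L1, at 0.76 ± 0.14 (adjusted p = 0.000562).

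Known AP-1 target genes went both ways. With panobinostat 8 of 15 tested rose and 7 fell in MM1.S, beside 69.8% of all genes called, and the median log2 fold change was 0.80 in the list and 0.07 in all genes. GJA1, the gap junction protein connexin 43, fell by 1.91 ± 0.29 (adjusted p = 2.50e-06), CCND1, cyclin D1, by 1.97 ± 0.63 (adjusted p = 0.00749) and VIM, vimentin, by 0.84 ± 0.12 (adjusted p = 1.71e-06). In JJN3 3 of 12 rose and 0 fell with panobinostat, beside 26.0% of all genes, and with the replicate block 5 rose and 2 fell, beside 41.9%. VIM was there at 0.08 ± 0.13 (adjusted p = 0.686). CCND1 had 10 counts over the JJN3 panobinostat libraries and 2 over those with vehicle (ratio 5.47, exact 95% counting interval 1.17 to 51.4) and was not tested there.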

How the data were processed

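The libraries were polyadenylated 3′ RNA sequencing of JJN3 and MM1.S, 3 per group. The deposited values are whole-number counts per gene, one table per line. The submitters' processing notes name HISAT2 2.2.1, featureCounts 2.0.1, limma 3.50.0 and the builds hg19 and GRCh37, without role or order, and the strand setting is not given in the sources used here. Columns were assigned by title; the treatment label of 2 JJN3 CX-5461 libraries spells the number of the drug differently, and the title was followed. Replicate pairs differed beyond sampling noise (chi-square over degrees of freedom 4.35 to 15.4 in 24 pairs), and none was identical.

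Genes were tested with edgeR 4.0.16 (R 4.3.3): quasi-likelihood with robust dispersion, TMM scaling, a filter at a minimum count of 10, and Benjamini-Hochberg adjustment over all genes tested, at a threshold of 0.05. Each line had its own fit of 12 libraries, and line differences came from 1 fit of 24. The pipeline was tested on simulated data. Levels are CPM with TMM factors over all 24 libraries, and ratios of small counts carry exact conditional 95% intervals. Total counts of 4751893 to 7305069 per library leave genes under about 2 CPM untested, and a count of 0 was read as at most 3.

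The JJN3 replicate numbers pair the libraries by the data: deviations from group means correlated above 0.1 in 18 of 18 same-numbered pairs (r from 0.20 to 0.48). Alternatives were DESeq2 1.42.0, other scaling, no filter, the replicate block, 1 fit of all 24 libraries, each library left out and JJN3 replicate 2 left out. Applying these to genes named from the lists, and counting members without FOS and FOSB, were chosen after seeing the data.

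The 8 members and the lists around them were chosen with earlier results of these data known. All members are named; of each list, the called genes with the largest rise and fall at an average log2 CPM of at least 1, plus ATF3, CCND1, DUSP1, IRF4, MAPK8, SRF and VIM; for likeness, the 2 nearest genes. A few genes that this rule names are not reported here.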

Additional observations from a re-analysis of the deposited data

Results flagged for a closer look

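In 12 cases a treatment moved a member differently in JJN3 than in MM1.S by the test of the difference itself (edgeR, 24 libraries, adjusted over all genes). For CX-5461 this was JUN, at -1.89 on the log2 scale (JJN3 effect minus MM1.S effect). For panobinostat it was JUN at -2.26, JUNB at -1.85, JUND at -1.20, FOS at -5.77, FOSB at -4.39 and BATF at 2.25. For the combination it was JUN at -2.21, JUNB at -2.09, JUND at -1.15, FOS at -5.38 and FOSB at -3.36. The values of FOS and FOSB rest on 1 and 2 counts in the MM1.S vehicle group, depend on the prior count and are no bound. In the fits of each line, neither gene would have passed the filter without libraries that hold panobinostat. The MM1.S effect within their cases was thus fixed beforehand, and these cases carry no weight as tests. The lines also differ in their vehicle levels of JUN, JUNB, JUND and BATF, and the part of these in the differences was not tested.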

How the results depend on the processing

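Among the recomputed log2 fold changes of members, 1793 kept direction and side of the threshold, 35 gained a call, 27 lost one and 14 changed sign. With 1 fit of all 24 libraries, the number of members called was 2 for CX-5461 in MM1.S, 0 for both drugs against panobinostat in MM1.S, 1 for the departure in MM1.S and 2 for panobinostat in JJN3. Of all 12872 genes, 826 were called higher and 494 lower, 113 and 74, 85 and 245, and 2284 and 1496, in the same order. Without the filter the number of members was 2 for both drugs against panobinostat in MM1.S, 3 for panobinostat in JJN3 and 3 for the CX-5461 difference between lines. Calls over all genes were then 412 higher and 322 lower of 19937, 1938 and 1435 of 18732, and 71 and 239 of 21062. Without all JJN3 libraries of replicate 2 the number was 3 for panobinostat and 6 for both drugs in JJN3, and 2 for the CX-5461 difference. All genes called there were 25.4%, 38.2% and 1.51%. With the replicate block the number was 3 for panobinostat and 1 for both drugs against panobinostat in JJN3, and 2 for the CX-5461 difference. All genes called there were 41.9%, 12.3% and 4.52%. Of the lists around AP-1, with panobinostat in JJN3, the block also gave 3 JNK and p38 kinases higher and 1 lower, beside 41.9% of all genes. The other changed counts stand beside the results. The MM1.S numbers do not pair the libraries by the same rule (6 of 18 pairs above 0.1, r from -0.05 to 0.29), although 12 of 12 libraries correlated best with their own number. There the block gave 2 members for both drugs against panobinostat, with JUN added (adjusted p = 0.0332), beside 521 genes higher and 404 lower of 12030. For CX-5461 the block called 21.2% of genes.

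Leaving out 1 library at a time, the count ran from 0 to 2 for both drugs against panobinostat in MM1.S, from 0 to 2 for panobinostat in JJN3, from 1 to 4 for both drugs in JJN3 and from 0 to 2 for the CX-5461 difference. Calls over all genes moved too. In the same order, they ran from 104 higher and 71 lower of 12310 to 616 and 561 of 12323, and from 1144 and 813 of 11644 to 1790 and 1280 of 11745. The last 2 ran from 1939 and 1553 of 11540 to 2422 and 2259 of 11718, and from 17 and 91 of 13150 to 70 and 175 of 13148. Small log2 fold changes that changed sign ran, for both drugs against panobinostat in MM1.S, from -0.31 to 0.044 for FOS and from -0.025 to 0.44 for FOSB, and for the departure of JUNB from -0.24 to 0.023. In JJN3 they ran from -0.30 to 0.95 for FOSL2 with panobinostat, from -0.13 to 0.24 for JUNB with both drugs and, for both drugs against panobinostat, from -0.13 to 0.79 for FOSL2, from -0.55 to 0.059 for JUN and from -0.24 to 0.022 for JUND. Scaling by library size alone moved the median of all genes to 0.20 with panobinostat and 0.24 with both drugs in MM1.S (0.07 and 0.06 with TMM), and the call of BATF with both drugs in JJN3 was lost (adjusted p = 0.0568). Of 50 called values of genes named from the lists, 32 were called whichever library was left out and 18 were lost without at least 1. The causes of these changes were not tested. FOSL1, and FOSB in JJN3, lie at the limit of this depth.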
